A study of Homo sapiens with 18 samples.

Results

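The prostaglandin and leukotriene pathway was followed through 10 genes, PTGS1, PTGS2, PTGES, PTGER2, PTGER4, ALOX5, ALOX5AP, LTA4H, LTC4S and TBXAS1, which were chosen by name for their place in the pathway, with earlier results of these data known. All 10 had a row among the 57500 genes counted in every library. RNA came from THP-1, a human monocytic leukaemia cell line grown in suspension, in 3 stable lines made with lentiviral particles. The shNT line expressed a non-target short hairpin RNA, the shNR4A2 line one against NR4A2 and the shNR4A3 line one against NR4A3, both of which are nuclear orphan receptors. Each line was left without stimulus (control) or given lipopolysaccharide (LPS), a bacterial cell wall component that activates monocytes, at 2.5 μg/ml for 2 h. The 6 groups had 3 libraries each, 18 in all, and the study calls them independent experiments. All cells were kept in puromycin before the experiment and incubated for 2 h before LPS. Each target was lowered by a single line, so the hairpin and the line cannot be told apart, and the sources used here do not say whether a line is a clone. Between 16171161 and 23929138 reads were counted on genes per library (median 19639071).

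Prostanoids and leukotrienes are lipid signals cut from arachidonic acid, a fatty acid that phospholipases free from membranes. Cyclooxygenases (PTGS1, made at a steady level in most cells, and PTGS2, an early inflammatory gene) turn it into prostaglandin H2, from which PTGES makes prostaglandin E2 and TBXAS1 makes thromboxane A2. Prostaglandin E2 acts on neighbouring cells through receptors that include PTGER2 (EP2) and PTGER4 (EP4), both of which raise cyclic AMP. In the other branch 5-lipoxygenase (ALOX5), helped by its activating protein at the nuclear membrane (ALOX5AP, also called FLAP), makes leukotriene A4, which LTA4H turns into the chemoattractant leukotriene B4 and LTC4S into leukotriene C4. Monocytes carry both branches.

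The promoters of the members that answered LPS most are shown first, next to that of PTGS1, which did not pass the test under LPS, so that the sequence before an inducible and a steady cyclooxygenase can be read side by side. Each is the 250 bases before the start in RefSeq (GRCh38.p14), written in the direction of transcription, with the matches of searched motifs in capitals. The table used held 9 of the 10 members.
PTGS2, chr1:186680424-186680673, minus strand: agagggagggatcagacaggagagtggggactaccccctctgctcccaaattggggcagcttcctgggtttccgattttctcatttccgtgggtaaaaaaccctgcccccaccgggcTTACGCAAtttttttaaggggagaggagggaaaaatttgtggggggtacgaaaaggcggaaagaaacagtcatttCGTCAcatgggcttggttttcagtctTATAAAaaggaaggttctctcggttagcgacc
PTGER2, chr14:52314062-52314311, plus strand: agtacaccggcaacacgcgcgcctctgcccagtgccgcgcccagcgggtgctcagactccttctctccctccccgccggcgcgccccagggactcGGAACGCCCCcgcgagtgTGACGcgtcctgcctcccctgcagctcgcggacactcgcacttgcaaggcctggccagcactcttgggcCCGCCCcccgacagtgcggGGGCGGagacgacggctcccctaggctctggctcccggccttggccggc
PTGS1, chr9:122370283-122370532, plus strand: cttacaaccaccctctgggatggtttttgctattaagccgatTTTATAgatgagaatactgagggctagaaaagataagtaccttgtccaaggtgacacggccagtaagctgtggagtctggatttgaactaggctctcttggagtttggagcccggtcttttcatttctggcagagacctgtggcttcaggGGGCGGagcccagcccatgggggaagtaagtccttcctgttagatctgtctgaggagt

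Motifs were searched on both strands. The element that NR4A receptors bind as monomers, NBRE, was searched as AAAGGTCA. The cyclic AMP response element, CRE, was searched as TGACGTCA and its core as CGTCA, which lies inside it. The AP-1 site was searched as TGANTCA and the C/EBP site as TTNNGNAA. The TATA box was searched as TATAAA, the SP1 box as GGGCGG and the NF-kappaB site by its consensus. In the PTGS2 window TTACGCAA (C/EBP) lay 133 to 126 bases before the start, CGTCA 58 to 54 and TATAAA 32 to 27. The PTGS2 window held no match to the NF-kappaB consensus searched. Its letters gggactaccc depart from that consensus in a single place, so the lack of a match does not show the lack of a site. Among 35114 promoters of the same length, 33.2% held the C/EBP letters, 21.2% the CRE core and 10.7% TATAAA. The PTGER2 window held an NF-kappaB match on the opposite strand 155 to 146 bases before the start, a CRE core on the opposite strand at 137 to 133 and an SP1 box on each strand, and 9.96% of promoters held an NF-kappaB match and 42.6% an SP1 box. The PTGS1 window held an SP1 box at 58 to 53 and TATAAA on the opposite strand at 208 to 203. A second PTGS1 start in the table, at 122375052 to 122375301, had a window with a C/EBP match at 115 to 108 and an SP1 box on the opposite strand at 202 to 197, so both cyclooxygenases had C/EBP letters before a start. The window of PTGER4 lay inside its deposited first exon and held 4 SP1 boxes and the NF-kappaB match ggggcttccc. No member window held the full NBRE, CRE or, apart from TBXAS1, AP-1 letters, which occurred in 1.05%, 1.65% and 6.57% of promoters. The TBXAS1 window, at 139829014 to 139829263, lay inside the deposited gene, with 111 of its 250 bases in deposited exons. The LTA4H window also lay inside its deposited gene, with 74 bases in exons. The ALOX5AP window opened with aaggtca, which is NBRE without its first letter. The study also took that shorter form as a site, and its share among promoters was not counted here. A match is a string of letters and says nothing of binding.

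The labels were checked before the members were read. All 10 monocyte markers looked at (among them CD14, CD33, LYZ, CSF1R and SPI1) stood at 1 TPM (counts divided by exon length and scaled to the same sum in each library) or more in every group. The most abundant marker of T cells, CD5, stood at 1.30 ± 0.0656 TPM in shNT control cells (SD, n = 3) and at 6.66 ± 1.18 TPM in shNR4A3 cells with LPS. Lists for mast cells, fibroblasts and epithelium summed to 1.01 TPM or less in each group's mean. The lists for B cells and for megakaryocytes and platelets summed to more, 11.6 ± 2.37 and 12.2 ± 3.19 TPM in shNT control cells. NR4A2 with LPS stood at 62.2, 74.7 and 51.3 TPM in shNT and at 20.5, 28.3 and 14.8 TPM in shNR4A2, 2.86-fold lower by the fit (log2 fold change -1.52 ± 0.19, SE, adjusted p = 0.0026). NR4A3 with LPS stood at 30.9, 32.3 and 31.9 TPM in shNT and at 17.03, 18.2 and 16.7 TPM in shNR4A3, 1.76-fold lower (adjusted p = 0.00056), so each line kept part of its target. Without LPS NR4A2 in shNR4A2 was -0.91 ± 0.23 (adjusted p = 0.036), called in 2 of 6 fits that left out 1 library. NR4A3 in shNR4A3 was -2.47 ± 0.49 (adjusted p = 0.0077), called in 6 of 6. That change rests on 5, 3 and 1 counts in shNR4A3 against 20, 21 and 17 in shNT control libraries. There NR4A3 passed the filter on low counts only through shNT, so the size of the change is uncertain. Blocking on replicate number, NR4A2 with LPS was also lower in shNR4A3 (-0.37, adjusted p = 0.0013, without the block 0.20). TNF, a cytokine gene that LPS induces, rose in all 3 lines, by a log2 of 5.23 ± 0.15, 5.14 ± 0.21 and 6.14 ± 0.22 in shNT, shNR4A2 and shNR4A3. The shNR4A3 line started lower, at 31.4 TPM without LPS against 65.3 TPM in shNT (-1.02 ± 0.21, adjusted p = 0.0097). With LPS its level was not called different (1868 against 2118 TPM, -0.12 ± 0.10, adjusted p = 0.51).

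In shNT control cells ALOX5, PTGER4 and ALOX5AP had the highest levels of the members. ALOX5 stood at 99.1 ± 7.48 TPM, PTGER4 at 92.6 ± 8.93, ALOX5AP at 63.5 ± 14.0, PTGS1 at 22.8 ± 0.867, LTA4H at 18.04 ± 0.251 and TBXAS1 at 10.4 ± 0.508 TPM. The ranges of ALOX5 and PTGER4 overlapped, and those of the other neighbours in this order did not. LTC4S stood at 2.47 ± 0.804, PTGS2 at 1.84 ± 0.288, PTGES at 0.769 ± 0.233 and PTGER2 at 0.230 ± 0.068 TPM. LTC4S and PTGS2 overlapped. In shNT cells with LPS the order of levels was PTGER4 at 628.1 ± 172, PTGS2 at 110.2 ± 27.9, ALOX5 at 79.2 ± 5.55 and ALOX5AP at 66.2 ± 4.84 TPM, with PTGS1 at 18.6 ± 0.888 TPM. There PTGS2 overlapped with ALOX5, while PTGER4 stood above all other members. So by group mean 8 members were at 1 TPM or more in shNT control cells and 10 in shNT cells with LPS. PTGES was among the 10 through its highest library, with a mean of 1.21 TPM and a range of 0.190 to 2.76 TPM.

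**Figure D1:**
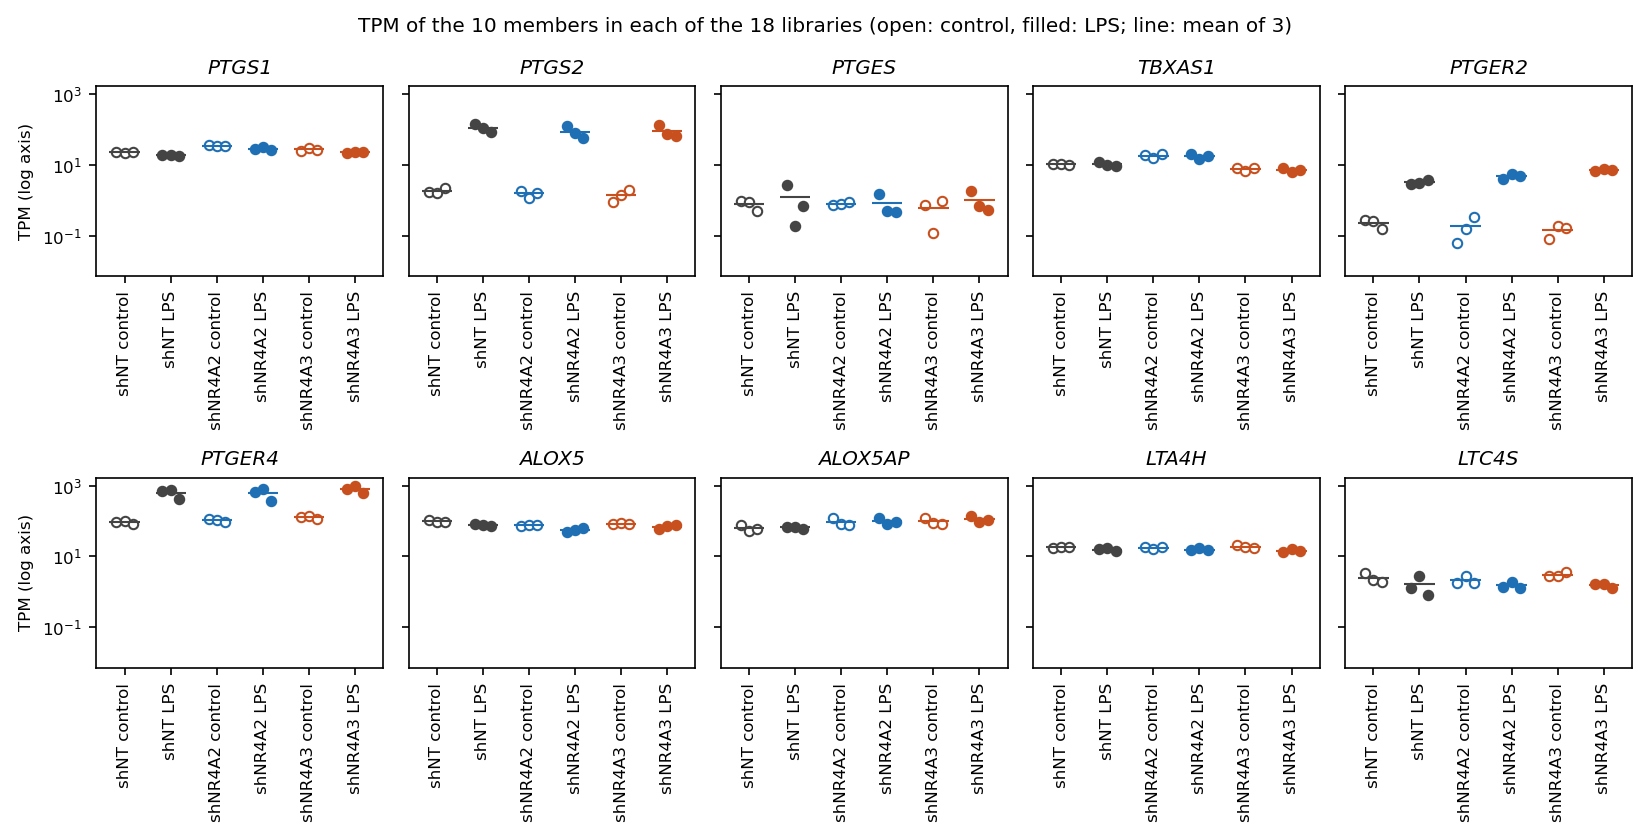
TPM of the 10 members (log axis, the same in each panel) in the 18 libraries, by group on the x axis, with open points for control, filled points for LPS and a line at the mean of 3 libraries. PTGS2, PTGER2 and PTGER4 stand apart between control and LPS in every line, and the points of control and LPS overlap in at least 1 line for ALOX5AP, TBXAS1, LTA4H, LTC4S and PTGES.

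LPS raised PTGS2, PTGER2 and PTGER4 in every line, and no other member passed the test in any line. In shNT cells 3 of 9 members tested were called, all higher, where 24.9% of all 15711 genes tested were called and 11.6% were called higher. In shNR4A2 cells it was 3 of 9, all higher, against 19.3% of genes called and 9.23% higher, and in shNR4A3 cells again 3 of 9, all higher, against 28.1% called and 13.1% higher. Lower calls made up 13.3%, 10.1% and 15% of all genes in the 3 lines and held no member. The median log2 fold change of the 9 members was 0.24, 0.21 and 0.10 in shNT, shNR4A2 and shNR4A3, beside -0.01, -0.02 and -0.01 over all genes tested. These calls held in every fit that left out 1 library. PTGES had too few counts to be tested in any comparison of the main test. It was tested with no filter, with all 18 libraries in 1 fit and in some other alternatives, and was called in none. PTGER2 passed the filter of the main test only through its LPS libraries.

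PTGS2 (ENSG00000073756, GRCh38 chromosome 1, 186671791 to 186680427, minus strand), the inducible cyclooxygenase, had the largest change of the 3. It stood at 1.73, 1.62 and 2.17 TPM in shNT control libraries and at 139.2, 107.8 and 83.5 TPM with LPS. In shNR4A2 it went from 1.84, 1.19 and 1.65 TPM to 124.8, 77.9 and 56.3 TPM, and in shNR4A3 from 0.870, 1.37 and 1.96 TPM to 134.3, 74.4 and 65.1 TPM. Every LPS library lay far above every control library, and within each line replicate 1 was the highest with LPS. The fitted rise was 69.5-fold in shNT (log2 6.12 ± 0.19, adjusted p = 2e-11), 66.3-fold in shNR4A2 (6.05 ± 0.32, adjusted p = 4e-08) and 76.6-fold in shNR4A3 (6.26 ± 0.36, adjusted p = 3.3e-07).

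PTGER2 (ENSG00000125384, chromosome 14, 52314305 to 52328606, plus strand), the EP2 receptor, was near the limit of detection without LPS, with 9, 8 and 5 counts summed over the 3 control libraries of shNT, shNR4A2 and shNR4A3. With LPS it stood at 2.89, 3.06 and 3.77 TPM in shNT, at 4.00, 5.69 and 4.91 TPM in shNR4A2 and at 6.57, 7.48 and 7.38 TPM in shNR4A3. The 3 lines did not overlap with LPS, and the highest control library of any line stood at 0.333 TPM. The rise was 15.8-fold in shNT (log2 3.98 ± 0.39, adjusted p = 3.9e-06), 30.6-fold in shNR4A2 (4.94 ± 0.41, adjusted p = 3.3e-06) and 55.5-fold in shNR4A3 (5.79 ± 0.34, adjusted p = 3.9e-07), each against a base of under 10 counts. PTGER2 passed the filter on low counts only through its LPS libraries, so the size of these folds is uncertain. With no filter it was also called in each line.

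PTGER4 (ENSG00000171522, chromosome 5, 40679498 to 40693735, plus strand), the EP4 receptor, was abundant without LPS and had the highest mean of the members with LPS in every line. Without LPS it had the highest mean in both knockdown lines (106.2 ± 12.9 TPM in shNR4A2 and 129.98 ± 12.7 TPM in shNR4A3) but not in shNT. It stood at 94.6, 100.4 and 82.9 TPM in shNT control libraries and at 718.4, 735.8 and 430.2 TPM with LPS. The change was 7.84-fold in shNT (log2 2.97 ± 0.17, adjusted p = 1e-08), 6.83-fold in shNR4A2 (2.77 ± 0.22, adjusted p = 2.1e-06) and 7.22-fold in shNR4A3 (2.85 ± 0.15, adjusted p = 1.5e-07). Replicate 3 was the lowest of the 3 LPS libraries in every line.

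The remaining enzymes that were tested did not pass the test in any line. PTGS1 had log2 fold changes of -0.08, -0.05 and -0.04 in the 3 lines, ALOX5 of -0.11, -0.15 and -0.05, LTA4H, the leukotriene B4 enzyme, of 0.01, 0.08 and -0.16, and TBXAS1, the thromboxane synthase, of 0.24, 0.21 and 0.10. The mean TPM of PTGS1, ALOX5 and LTA4H was lower with LPS in every line, and for LTA4H (shNT and shNR4A2) and TBXAS1 (shNR4A2 and shNR4A3) the sign differed between TPM and the fit. The median gene's TPM was 0.853 of its control value in shNT, 0.823 in shNR4A2 and 0.850 in shNR4A3, a shift of -0.23 to -0.28 on the log2 scale that is not seen in the fit, where the median gene was within 0.02 of 0. PTGS1 with LPS was 0.815 of its control TPM in shNT, near that shift. LTC4S (ENSG00000213316, chromosome 5, 179793980 to 179796647, plus strand) had log2 fold changes of -0.43 ± 0.45, -0.24 ± 0.39 and -0.76 ± 0.34 on 6 to 23 counts per library. Its deposited exons share 1056 bases with MAML1 on the same strand, so reads there could belong to either gene. LTA4H (ENSG00000111144, chromosome 12, 96000828 to 96043520, minus strand) shares exon bases with the antisense genes AC007298.2 and AC007298.1, which had 98 and 7 counts over the 18 libraries, and the strand setting of the counting is not given in the sources used here.

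ALOX5AP (ENSG00000132965, chromosome 13, 30713478 to 30764426, plus strand) was the member nearest to a further call under LPS. Its log2 fold change was 0.28 ± 0.14 in shNT (adjusted p = 0.16), 0.34 ± 0.21 in shNR4A2 (adjusted p = 0.29) and 0.44 ± 0.19 in shNR4A3 (adjusted p = 0.11). Blocking on replicate number, it passed in shNR4A2 (0.35, adjusted p = 0.034, where 30.1% of genes were called) and in shNR4A3 (0.44, adjusted p = 0.0015, where 39.4% were). It also passed in shNT without control replicate 1 (0.48, adjusted p = 0.012) and in shNR4A3 without control replicate 1 (0.67, adjusted p = 0.018) or LPS replicate 2 (0.60, adjusted p = 0.016). Its TPM overlapped between control and LPS in each line.

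**Figure D2:**
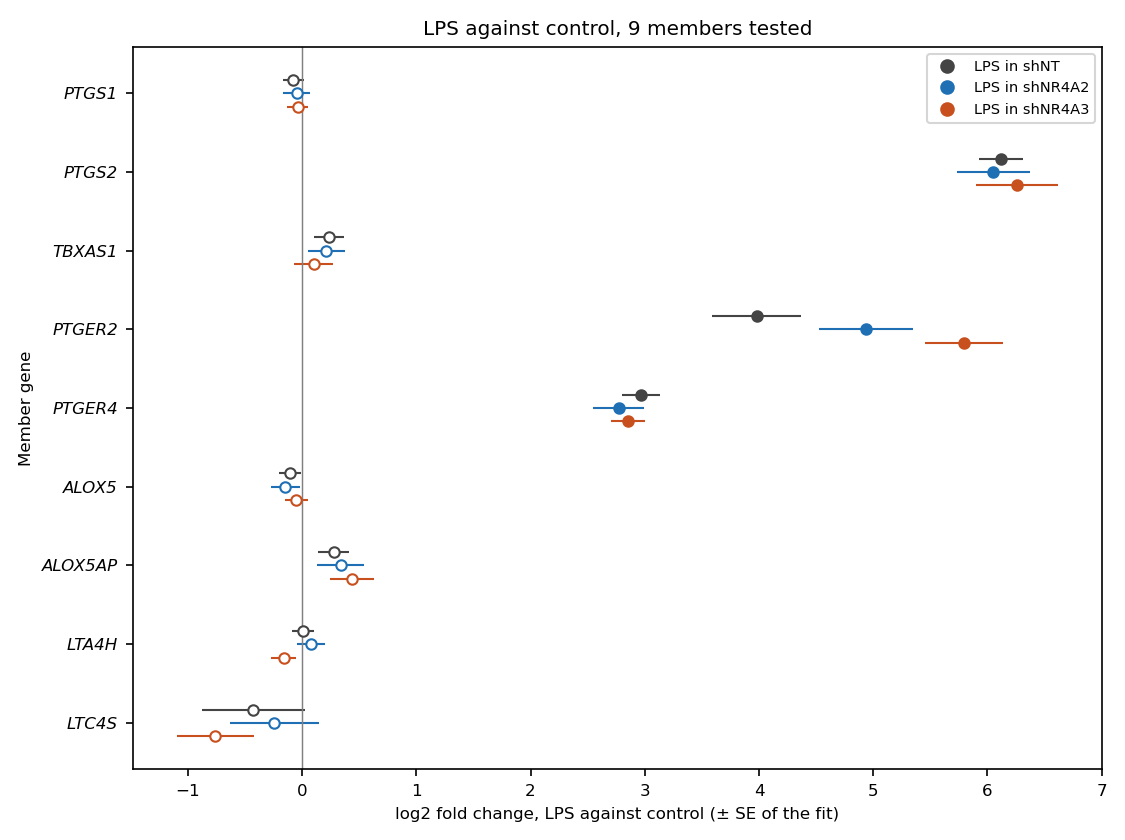
The log2 fold change of LPS against control (x axis, bars ± SE of the fit) of the 9 members tested, in shNT, shNR4A2 and shNR4A3, filled where the adjusted p was under 0.05. PTGER4 lies near 3, PTGER2 between 3.98 and 5.79 and PTGS2 near 6, and the other 6 members lie within 1 of 0.

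PTGES (ENSG00000148344, chromosome 9, 129738331 to 129753047, minus strand), which makes prostaglandin E2 from the product of PTGS2, stood at 0.926, 0.879 and 0.502 TPM in shNT control libraries and at 2.76, 0.190 and 0.679 TPM with LPS. These are 2 to 30 counts per library. The libraries of the 6 groups overlapped, from 0.119 TPM in a shNR4A3 control library to 2.76 TPM. PTGES2 and PTGES3, other enzymes that can make prostaglandin E2, were far more abundant at 47.8 ± 2.9 and 333.6 ± 31.6 TPM in shNT control cells, and were not called under LPS in any line.

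The balance of the cyclooxygenases turned over with LPS. PTGS2 made up 6.79%, 6.83% and 8.77% of the summed TPM of PTGS1 and PTGS2 in shNT control libraries and 88.0%, 84.8% and 82.6% with LPS. In shNR4A2 it made up 4.76%, 3.27% and 4.66% without and 81.9%, 71.3% and 67.9% with LPS, and in shNR4A3 3.35%, 4.44% and 6.75% without and 86.1%, 76.4% and 73.7% with LPS. The shNR4A2 LPS share lay below the shNT share in all 3 libraries, and the shNR4A3 share overlapped with shNT but was lower within each replicate number. These shares follow from the values of both genes and were given no test of their own.

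In the shNR4A2 line PTGS1, TBXAS1 and, weakly, ALOX5AP were higher and ALOX5 was lower than in shNT. Without LPS 3 of 8 members tested were called, where 6.45% of 15800 genes were called (3.63% higher, 2.82% lower). With LPS 4 of 8 were called, against 6.96% (4.31% higher, 2.65% lower). The median log2 fold change of the 8 members was 0.09 without and 0.35 with LPS, beside 0.00 over all genes in both. Both comparisons use their own shNT libraries.

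PTGS1 (ENSG00000095303, chromosome 9, 122370530 to 122395703, plus strand) stood at 23.8, 22.1 and 22.5 TPM in shNT control and at 36.8, 35.3 and 33.9 TPM in shNR4A2 control libraries, and with LPS at 18.9, 19.3 and 17.6 TPM against 27.5, 31.3 and 26.5 TPM. The groups did not overlap. It was 1.55-fold higher without LPS (log2 0.63 ± 0.10, adjusted p = 0.0042) and 1.59-fold higher with LPS (0.67 ± 0.09, adjusted p = 0.0032), in every fit that left out 1 library. TBXAS1 (ENSG00000059377, chromosome 7, 139777051 to 140020325, plus strand) stood at 10.5, 10.8 and 9.80 TPM in shNT control and at 19.0, 15.3 and 20.3 TPM in shNR4A2 control libraries, 1.76-fold higher (0.81 ± 0.13, adjusted p = 0.0042). With LPS it was 12.3, 10.1 and 9.08 TPM against 19.8, 15.01 and 17.4 TPM (0.79 ± 0.16, adjusted p = 0.021). That call was lost without shNT LPS replicate 2 or 3 or shNR4A2 LPS replicate 1 (adjusted p = 0.093, 0.085 and 0.072), and TBXAS1 shares no exon with its neighbour HIPK2.

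ALOX5 (ENSG00000012779, chromosome 10, 45374176 to 45446119, plus strand) stood at 107.4, 97.1 and 92.8 TPM in shNT control and at 72.8, 77.9 and 75.0 TPM in shNR4A2 control libraries, 1.32-fold lower (log2 -0.40 ± 0.10, adjusted p = 0.042). With LPS it stood at 85.3, 77.9 and 74.4 TPM against 49.2, 56.1 and 63.6 TPM (-0.44 ± 0.11, adjusted p = 0.0496). The groups did not overlap in either state, but both calls lie at the limit. The first was lost without shNT control replicate 1 or 2 or shNR4A2 control replicate 1 or 3 (adjusted p between 0.10 and 0.17), and the second without any single LPS library but shNR4A2 replicate 3 (adjusted p between 0.077 and 0.15). With the replicate block the adjusted p was 0.0016 and 1.1e-05.

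ALOX5AP, the partner of ALOX5, went the other way. With LPS it stood at 69.6, 68.4 and 60.7 TPM in shNT and at 121.7, 84.5 and 91.4 TPM in shNR4A2, 1.57-fold higher (log2 0.65 ± 0.16, adjusted p = 0.042). The call was lost without any single LPS library but shNR4A2 replicate 2 (adjusted p between 0.056 and 0.14), and held with the block (adjusted p = 7e-08). Without LPS the groups overlapped (0.58 ± 0.19, adjusted p = 0.11), and ALOX5AP passed with the block (adjusted p = 0.00025), as did PTGER4 (0.20, adjusted p = 0.040). Calls with the block numbered 5 of 8 members without LPS, where 23.6% of genes were called, and 6 of 8 with LPS, where 28.1% were.

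PTGS2 and PTGER2 with LPS were the members that the block added in shNR4A2. PTGS2 was lower than in shNT within each replicate number, but the groups overlapped (log2 -0.28 ± 0.28, adjusted p = 0.60, with the block -0.34, adjusted p = 0.00029). PTGER2 did not overlap between the lines (0.63 ± 0.22, adjusted p = 0.12, with the block adjusted p = 0.025). PTGER4 with LPS had a log2 fold change of 0.00 ± 0.25, and LTA4H one of -0.01 ± 0.10 without and 0.06 ± 0.10 with LPS. LTC4S was -0.22 ± 0.38 without LPS and was not tested with it, and PTGER2 was not tested without LPS for lack of counts.

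**Figure D3:**
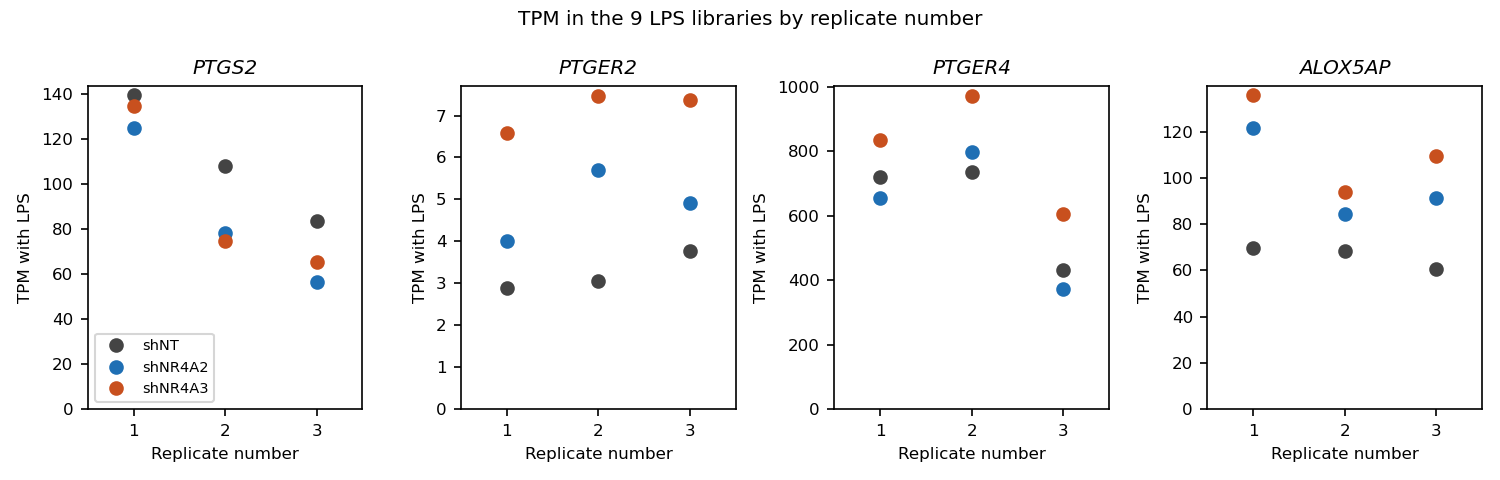
TPM with LPS (y axis, from 0) by replicate number (x axis) for PTGS2, PTGER2, PTGER4 and ALOX5AP, 1 point per library and a colour per line. PTGS2 in shNT lies above both knockdown lines at each number, PTGER2 orders as shNT, shNR4A2, shNR4A3 at each number, and the level of PTGS2 and PTGER4 moves with the number in all lines.

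In the shNR4A3 line PTGER4, ALOX5AP, PTGER2 and PTGS1 were higher than in shNT, in 1 or both states. Without LPS 2 of 8 members tested were called, both higher, where 7.23% of 15322 genes were called with 3.91% higher and 3.32% lower. With LPS 3 of 9 were called, all higher, against 6.45% called, with 3.99% higher and 2.46% lower. The median log2 fold change of the members was 0.21 without and 0.02 with LPS, beside 0.00 and -0.01 over all genes.

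For PTGER2, the 3.24 ± 0.469 TPM in shNT with LPS and 7.14 ± 0.495 TPM in shNR4A3 with LPS did not overlap, and it was 2.28-fold higher (log2 1.19 ± 0.19, adjusted p = 0.0063), in every fit that left out 1 library. Without LPS it had too few counts for a test. PTGER4 stood at 94.6, 100.4 and 82.9 TPM in shNT control and at 130.2, 142.6 and 117.2 TPM in shNR4A3 control libraries, 1.45-fold higher without overlap (0.53 ± 0.11, adjusted p = 0.0090). With LPS it stood at 833.2, 971.6 and 604.6 TPM and overlapped with shNT (0.41 ± 0.20, adjusted p = 0.24, with the block adjusted p = 0.00024). All 18 libraries in 1 fit gave no call for PTGER4 without LPS.

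ALOX5AP stood at 123.1, 86.0 and 84.7 TPM in shNR4A3 control libraries, above the 79.3, 52.7 and 58.4 TPM of shNT, 1.60-fold higher (log2 0.68 ± 0.17, adjusted p = 0.032). The call was lost without shNT control replicate 2 or 3 or shNR4A3 control replicate 1 (adjusted p = 0.13, 0.11 and 0.12). With LPS it stood at 136.0, 93.9 and 109.6 TPM, 1.79-fold higher (0.84 ± 0.15, adjusted p = 0.011), in every fit that left out 1 library.

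PTGS1 was 1.27-fold higher in shNR4A3 with LPS, at 21.6, 23.0 and 23.3 TPM (log2 0.34 ± 0.08, adjusted p = 0.039). The call was lost without any single LPS library but shNR4A3 replicate 2 (adjusted p between 0.080 and 0.15). Without LPS it was 0.30 ± 0.09 (adjusted p = 0.074, with the block 0.024, where 14.8% of genes were called). TBXAS1 lay on the other side of shNT here, at 7.98, 6.29 and 7.10 TPM with LPS (-0.49 ± 0.15, adjusted p = 0.093, with the block 0.0034) and at 8.39, 6.60 and 8.38 TPM without (-0.36 ± 0.14, adjusted p = 0.17). The block gave calls for 5 of 9 members with LPS, where 21.8% of genes were called. PTGS2 was -0.34 ± 0.28 without and -0.20 ± 0.27 with LPS, ALOX5 -0.20 ± 0.09 and -0.14 ± 0.10, LTA4H 0.12 ± 0.11 and -0.05 ± 0.09, and LTC4S 0.35 ± 0.34 and 0.02 ± 0.47, and none of these was called.

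**Figure D4:**
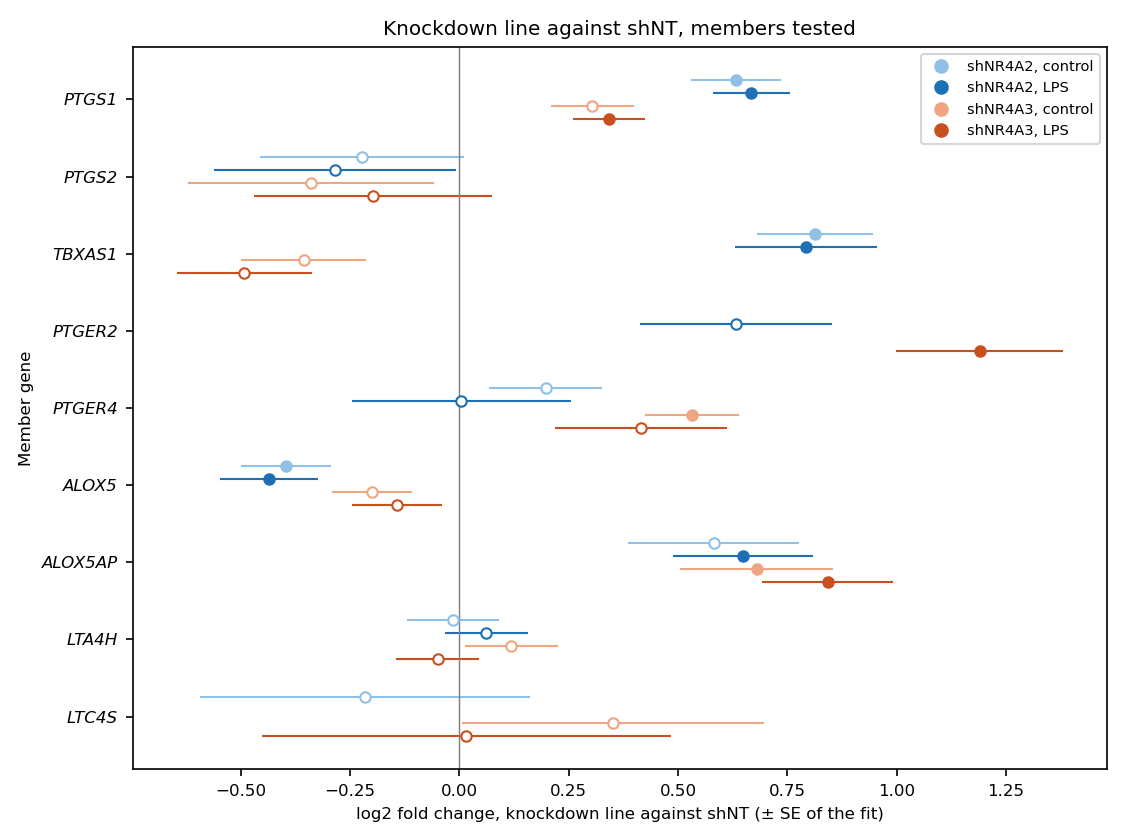
The log2 fold change of each knockdown line against shNT in the same state (x axis, bars ± SE of the fit) for the members tested, filled where the adjusted p was under 0.05. ALOX5AP and PTGS1 lie right of 0 in all 4 comparisons, PTGS2 lies left of 0 in all 4 without a call, and TBXAS1 lies right of 0 in shNR4A2 and left of 0 in shNR4A3.

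Monocyte markers moved in the same comparisons. The summed TPM of the 10 monocyte markers was 1213 ± 68.6 in shNT control, 1855 ± 125 in shNR4A2 control and 2167 ± 241 in shNR4A3 control cells, and 1305 ± 111, 1905 ± 151 and 2248 ± 207 with LPS. SPI1, a myeloid transcription factor, was the most abundant in every group but shNR4A3 control, where LYZ was. LYZ, lysozyme, was called higher in all 4 comparisons with shNT, from a log2 of 1.68 ± 0.14 in shNR4A2 control to 2.29 ± 0.13 in shNR4A3 LPS, and so was CSF1R, from 0.77 to 1.10. CD14 was called higher in both lines without LPS, ITGAM and SPI1 in shNR4A3 in both states, and CD33, CD68, FCGR1A, CD4 and MPO in no comparison. CD33 stood at 38.8 TPM in shNT control and 36.6 TPM in shNR4A3 control cells, and FCGR1A at 96.7 and 92.9 TPM. LYZ alone went from 192.5 TPM in shNT control to 882.9 TPM in shNR4A3 control cells and made up most of the difference in the sum. CD5, the most abundant of the 5 T cell markers, was 2.04 ± 0.23 higher in shNR4A3 with LPS, at 6.66 ± 1.18 TPM, while CD3D, CD3E, CD2 and TRBC1 stayed under 1 TPM in each group's mean. The 4 B cell markers summed to 11.6 ± 2.37 TPM in shNT control and 6.84 ± 0.729 TPM in shNR4A3 control cells, with PAX5 lower there (-1.87 ± 0.24) and MS4A1 listed at 0 counts in both. The 4 megakaryocyte and platelet markers summed to 12.2 ± 3.19, 9.64 ± 1.55 and 7.61 ± 1.41 TPM in shNT, shNR4A2 and shNR4A3 control cells, led by GP9. The part of these shifts in the differences of the pathway genes between lines was not tested, and in bulk RNA fewer expressing cells and less RNA per cell cannot be told apart.

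The 2 knockdown lines differed from each other in TBXAS1. It was 2.25-fold higher in shNR4A2 than in shNR4A3 without LPS (log2 1.17 ± 0.15, adjusted p = 0.0010) and 2.44-fold higher with LPS (1.29 ± 0.17, adjusted p = 0.0088). It was the only call among 8 members tested without LPS, where 3.08% of genes were called (1.94% higher, 1.14% lower), and among 9 with LPS, where 2.33% were called (1.27% higher, 1.06% lower). The call with LPS was lost without shNR4A3 LPS replicate 3 (adjusted p = 0.054). With the block PTGS1 (0.33, adjusted p = 0.019) and PTGER4 (-0.34, adjusted p = 0.0081) were added without LPS, where 11.6% of genes were called. With LPS the block added PTGS1 (0.33, adjusted p = 0.0046), PTGER2 (-0.56, adjusted p = 0.023), PTGER4 (-0.44, adjusted p = 0.00049), ALOX5 (-0.29, adjusted p = 0.0029) and ALOX5AP (-0.19, adjusted p = 0.037), where 23.6% of genes were called.

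Whether LPS acted differently in a knockdown line was tested as an interaction over 12 libraries. None of 9 members tested was called by edgeR in either line, where 0% of 16674 and of 16428 genes were called. At an unadjusted p under 0.05, 365 and 824 genes passed and DESeq2 called 2 and 10 genes. The member closest to a call was PTGER2 in shNR4A3 (log2 1.82 ± 0.63, unadjusted p = 0.019, adjusted p = 0.94), and it was the only member under 0.05 unadjusted. In shNR4A2 PTGER2 was 0.96 ± 0.68. Both values rest on few control counts of PTGER2 (9, 8 and 5 summed in shNT, shNR4A2 and shNR4A3). PTGS2 had an interaction of -0.06 ± 0.44 in shNR4A2 and 0.14 ± 0.49 in shNR4A3, and PTGER4 of -0.19 ± 0.31 and -0.12 ± 0.25.

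The rest of the eicosanoid pathway was read through 57 further genes in 7 lists, of which 40 could be tested under LPS in each line. In shNT cells 4 were higher and 9 lower (32.5% of those tested, beside the 24.9% of all genes), in shNR4A2 3 higher and 7 lower (25.0%, beside 19.3%) and in shNR4A3 4 higher and 7 lower (27.5%, beside 28.1%). With the replicate block it was 4 higher and 9 lower in shNR4A2 and 7 higher and 7 lower in shNR4A3, where 30.1% and 39.4% of all genes were called. The median log2 fold change of the 40 was 0.10, 0.00 and 0.00.

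The list for release of arachidonic acid or its precursors moved both ways with LPS. It also holds PLA2G7, which breaks down platelet-activating factor, and ANXA1, an inhibitor of phospholipase A2 activity. Of 11 tested, 3 were higher and 3 lower in shNT and 2 higher and 3 lower in each knockdown line. PLA2G7 was among the higher in every line. Of all genes 24.9%, 19.3% and 28.1% were called. With the block it was 3 higher and 3 lower in each knockdown line, since PNPLA8, a calcium-independent phospholipase called higher in shNT (0.43 ± 0.10), was added (0.54, adjusted p = 0.0030, in shNR4A2 and 0.47, adjusted p = 0.0021, in shNR4A3). PLA2G7 stood at 0.520, 0.206 and 0.657 TPM in shNT control and at 2.06, 1.78 and 2.38 TPM with LPS, 5.09-fold higher (log2 2.35 ± 0.42). It was 4.28 ± 0.58 higher in shNR4A2 and 3.19 ± 0.51 in shNR4A3, on 1 to 7 control counts per library. PLA2G7 passed the filter on low counts only through its LPS libraries, so the size of these folds is uncertain. PLA2G4C, a cytosolic phospholipase A2, was 1.10 ± 0.23, 1.26 ± 0.25 and 1.43 ± 0.24 higher. PLA2G15, the lysosomal phospholipase A2, fell by 0.99, 1.02 and 1.16 on the log2 scale, from 34.5, 35.4 and 31.9 TPM to 16.6, 14.6 and 13.1 TPM in shNT. DAGLA and DAGLB, the diacylglycerol lipases, fell in all lines, DAGLA by 0.78, 1.11 and 1.25 and DAGLB by 0.46, 0.52 and 0.64. PLA2G4A, the main cytosolic phospholipase A2, was not called in any line. Of these calls all held without any single library but that of DAGLB in shNR4A2, which held in 4 of 6 such fits (adjusted p up to 0.066).

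Of the other prostanoid receptors 4 of 7 could be tested, and with LPS 1 was called higher and 1 lower in shNT and 1 lower in each knockdown line. Of all genes 24.9%, 19.3% and 28.1% were called in shNT, shNR4A2 and shNR4A3, with 11.6%, 9.23% and 13.1% higher. The median log2 fold change of the 4 receptors tested was 0.72, 0.48 and 0.14 in shNT, shNR4A2 and shNR4A3. PTGER1 (0.69 ± 0.29 in shNT) and PTGER3 (0.74 ± 0.35 in shNT), the EP1 and EP3 receptors, which were named after their values were seen, were not called in any line. TBXA2R, the thromboxane receptor, fell by 1.13, 0.95 and 1.49 on the log2 scale in shNT, shNR4A2 and shNR4A3 (in shNR4A2 in 2 of 6 fits that left out 1 library), and PTGIR, the prostacyclin receptor, was 0.85 ± 0.29 higher in shNT (adjusted p = 0.046, held in 1 of 6 fits that left out 1 library, adjusted p up to 0.25). The block added PTGIR in shNR4A3 (0.71, adjusted p = 0.045), where 39.4% of genes were called. LTB4R and LTB4R2, the leukotriene B4 receptors, fell by 0.46 and 0.66 in shNT and by 0.58 and 0.87 in shNR4A2, and were not called in shNR4A3 (-0.14 and -0.22). In shNR4A2 these calls held in 3 and 2 of 6 fits that left out 1 library. The 2 genes lie next to each other and their reads can be hard to separate. CYSLTR1, a cysteinyl leukotriene receptor, fell by 0.44 in shNT (in 4 of 6 such fits) and by 0.71 in shNR4A3, and FPR2, a receptor for formyl peptides and lipoxin, by 1.17 and 1.81. In shNT 4 of 6 lipid mediator receptors tested were lower and in each knockdown line 2 of 6, beside 13.3%, 10.1% and 15% of all genes lower. With the block it was 4 of 6 in shNR4A2, where CYSLTR1 (adjusted p = 0.042) and FPR2 (adjusted p = 0.044) were added, and whether the lines differ was not shown by these counts.

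Among the other prostanoid synthases CBR1, a carbonyl reductase that acts on prostaglandins, fell with LPS by 0.80, 0.80 and 1.22 on the log2 scale in the 3 lines, and AKR1B1, an aldo-keto reductase with prostaglandin F synthase activity, was higher in shNR4A2 (0.52 ± 0.16) and shNR4A3 (0.39 ± 0.11), each in 3 of 6 fits that left out 1 library. The CBR1 call in shNR4A2 held in 4 of 6. ALOX12, the platelet-type lipoxygenase and the only one of 5 further lipoxygenases tested, was called in shNR4A3 (1.00 ± 0.23 higher), at 4.24, 4.17 and 5.18 TPM with LPS against 2.90, 2.33 and 2.74 TPM without, and was not called in shNT (0.01 ± 0.25) or shNR4A2 (-0.06 ± 0.27). Its interaction in shNR4A3 was not called (0.98 ± 0.32, adjusted p = 0.89). Between the knockdown lines with LPS, ALOX12 was called lower in shNR4A2 than in shNR4A3 (-1.19). In that comparison 1 of 40 pathway genes tested was higher and 2 lower (7.5%, beside 2.33% of all genes). With the block it was 8 higher and 4 lower, where 23.6% of genes were called. Without LPS 1 of 41 was called, as higher (2.44%, beside 3.08%). No gene of the lists for prostanoid transport and breakdown (3 tested) and for leukotriene synthesis partners and breakdown (8 tested) was called under LPS in any line. Of all genes 24.9%, 19.3% and 28.1% were called in shNT, shNR4A2 and shNR4A3, and so few genes tested say little. The block added GGT1, a gamma-glutamyltransferase that acts on leukotriene C4, in shNR4A3 (0.26, adjusted p = 0.022), where 39.4% of genes were called.

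**Figure D5:**
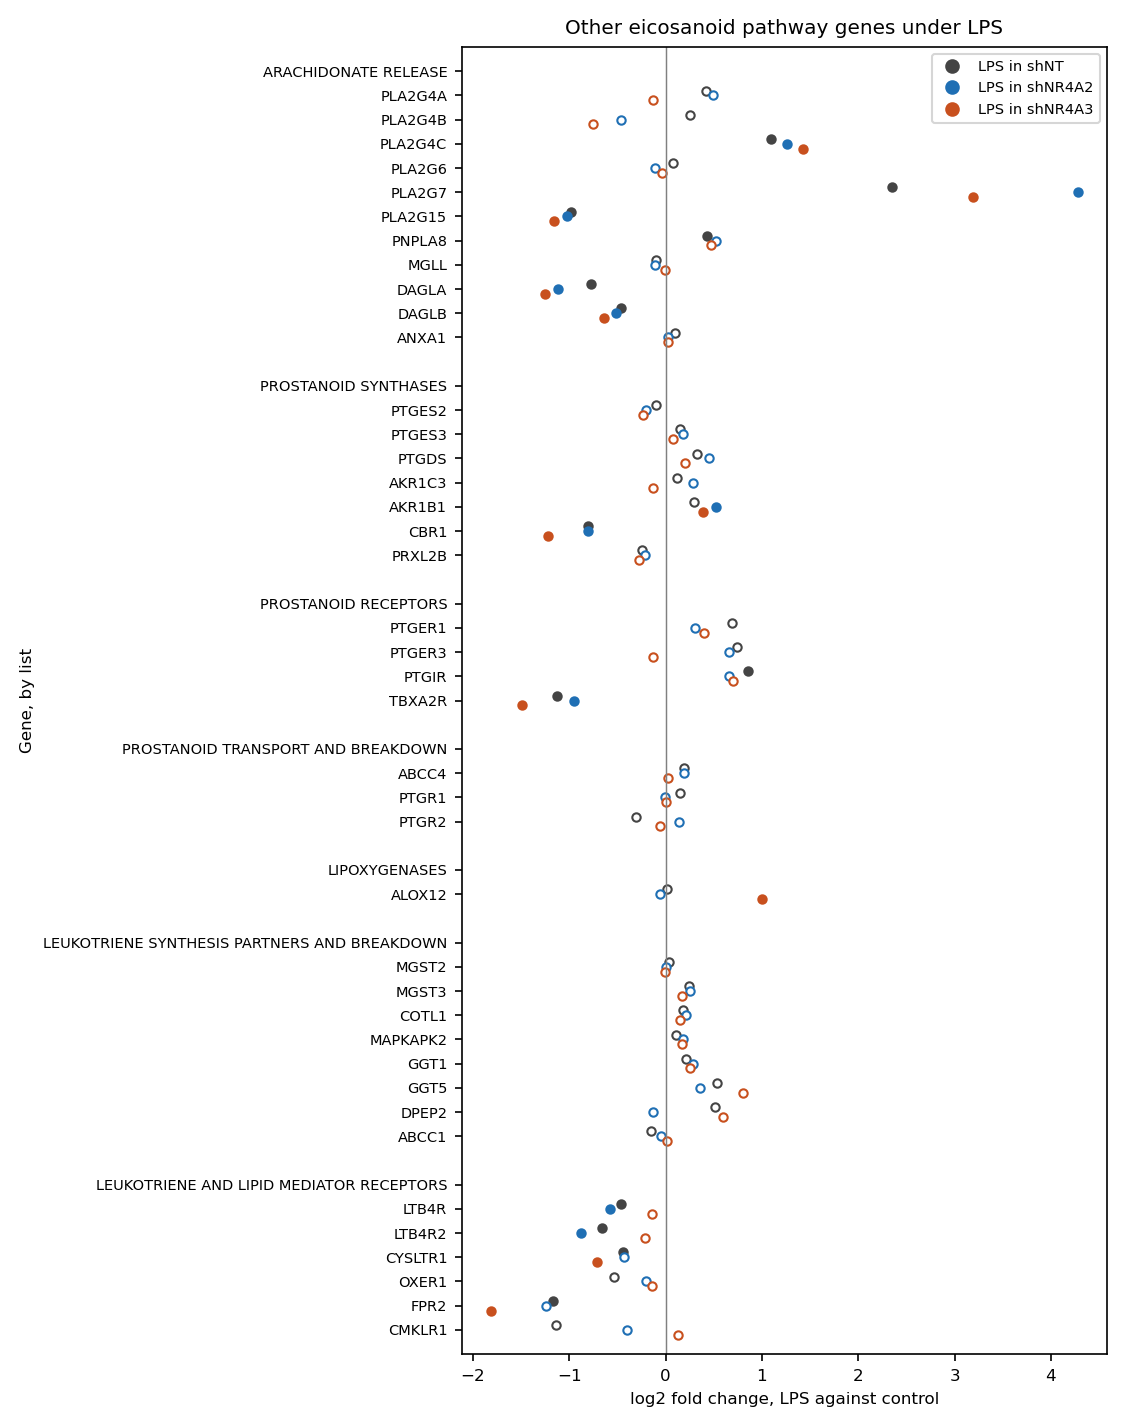
The log2 fold change of LPS against control (x axis) of the other eicosanoid pathway genes tested, by list (y axis) and line (colour), filled where the adjusted p was under 0.05. PLA2G7 and PLA2G4C lie to the right and PLA2G15, DAGLA, CBR1 and TBXA2R to the left in all 3 lines.

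Between lines, PTGDS was lower in both knockdown lines than in shNT. Both lines were compared with the same shNT libraries in each state. This prostaglandin D2 synthase stood at 24.005, 14.7 and 20.5 TPM in shNT control libraries, at 8.74, 4.49 and 6.92 TPM in shNR4A2 and at 10.7, 4.66 and 5.27 TPM in shNR4A3, and was called lower in all 4 comparisons with shNT. The log2 fold change was -1.54 ± 0.23 and -1.43 ± 0.35 in shNR4A2 and -1.45 ± 0.28 and -1.58 ± 0.30 in shNR4A3, without and with LPS. The call in shNR4A2 with LPS (adjusted p = 0.043) held in 1 of 6 fits that left out 1 library (adjusted p up to 0.14), and the other 3 held in all 6.

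In shNR4A2 without LPS 6 of 40 tested pathway genes were higher and 2 lower, beside 6.45% of all genes called, and with LPS 4 were higher and 3 lower, beside 6.96%. With the block it was 9 higher and 7 lower without LPS and 12 higher and 6 lower with LPS, where 23.6% and 28.1% of all genes were called. FPR2 was among those added as lower in both states (-1.12, adjusted p = 0.00066, and -1.23, adjusted p = 0.0038). AKR1C3, which makes prostaglandin F2alpha and 11beta-prostaglandin F2, was 2.01-fold higher without (log2 1.01 ± 0.17, adjusted p = 0.0055) and 2.27-fold with LPS (1.18 ± 0.15, adjusted p = 0.0030), and 1.38 ± 0.19 and 1.80 ± 0.23 higher than in shNR4A3. It is near-identical in parts to other AKR1C genes, so its reads may be shared. ANXA1, an inhibitor of phospholipase A2 activity, was 0.63 ± 0.10 and 0.56 ± 0.11 higher, and ABCC4, an exporter of prostaglandins, was lower (-0.49 ± 0.13 and -0.48 ± 0.10). The ANXA1 call with LPS held in 3 of 6 fits that left out 1 library and the ABCC4 calls in 1 and 2 of 6 (adjusted p up to 0.17). PTGER1, the EP1 receptor, was 2.05-fold higher without LPS (adjusted p = 0.025), a call that held in 1 of 6 fits that left out 1 library (adjusted p up to 0.11). LTB4R was lower with LPS (-0.62 ± 0.11, adjusted p = 0.014), in 4 of 6 such fits. Also higher without LPS were PLA2G15 (0.58 ± 0.13), DAGLA (0.65 ± 0.15) and CMKLR1 (1.38 ± 0.28), in 3, 3 and 4 of 6 such fits. COTL1, a protein that binds 5-lipoxygenase, was higher with LPS (0.38 ± 0.10, in 1 of 6 such fits), and without LPS it was 0.33 ± 0.10 (adjusted p = 0.082, with the block 0.00063).

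In shNR4A3 3 of 39 tested pathway genes were higher and 2 lower without LPS, beside 7.23% of all genes called, and 1 of 40 was higher and 3 lower with LPS, beside 6.45%. With the block it was 6 higher and 3 lower without LPS and 7 higher and 4 lower with LPS, where 14.8% and 21.8% of all genes were called, so the balance with LPS turned. The block added CMKLR1 (1.09, adjusted p = 0.032) without LPS and ANXA1, COTL1 and ALOX12 among others with LPS. CMKLR1, a receptor for chemerin and resolvin E1, was 2.36 ± 0.42 higher with LPS, at 1.46, 0.783 and 0.883 TPM against 0.245, 0.127 and 0.254 TPM. It was 2.13 ± 0.49 higher in shNR4A2 with LPS, and these calls held in 5 and 2 of 6 fits that left out 1 library. CMKLR1 had 8, 4 and 9 counts in the shNT LPS libraries. With LPS it passed the filter only through the knockdown libraries, so the size of these 2 changes is uncertain. FPR2 was lower with LPS (-1.47 ± 0.29, adjusted p = 0.017) and PLA2G4A was lower (-0.76 ± 0.19, adjusted p = 0.043), and these held in 2 and 1 of 6 fits that left out 1 library. Without LPS ABCC1, the exporter of leukotriene C4, was lower (-0.44 ± 0.10), and ANXA1 (0.34 ± 0.09), PLA2G15 (0.39 ± 0.10) and COTL1 (0.33 ± 0.09), were higher. Each of these 4 calls held in 2 of 6 fits that left out 1 library (adjusted p up to 0.18).

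The patterns most like those of the 3 members with the widest range were described over the 18 libraries, among 16935 genes, by Pearson's r of log2 CPM. These libraries share lines, replicate numbers and the contrast of LPS, and the genes were chosen for their likeness. For PTGS2 the nearest were IL1A (0.995), FAM53C (0.994), PLAGL2 (0.993), NCOA7 (0.993) and ZC3H12C (0.993). For PTGER2 they were BIRC3 (0.989), CHST2 (0.987), TRAF1 (0.986), ZBTB10 (0.986) and JUNB (0.985). For PTGER4 they were PDE4B (0.987), a phosphodiesterase that breaks down cyclic AMP, then STX11 (0.985), MXD1 (0.985), PPP1R15A (0.983) and JUNB (0.981).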

How the data were processed

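Poly(A) RNA of the 18 libraries was sequenced in pairs on an Illumina HiSeq. The authors deposited whole-number read counts per gene with each gene's exon length. The submitters' processing notes name Trimmomatic 0.36, STAR 2.5.2b, featureCounts, Subread 1.5.2 and GRCh38. Whether counting used strand is not given in the sources used here, so antisense and overlapping genes may share reads. Symbols came from GENCODE 29, matched by gene identifier.

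Each comparison was fitted on its own libraries over all genes with edgeR 4.0.16 in R 4.3.3 (filterByExpr with a minimum count of 10, TMM, glmQLFit and glmQLFTest, Benjamini-Hochberg adjustment), and adjusted p under 0.05 was called. Interactions used the 4 groups of the lines compared. SE is the size of the log2 fold change divided by the square root of F. TPM was computed from counts and deposited lengths and used for levels only. The scripts were tested on simulated data. Members, lists and the named genes (all members, the called genes of the lists, and the 5 nearest patterns of the 3 members of widest range) were chosen with earlier results of these data known.

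Same-numbered libraries deviated together (every correlation over 0.1) in all comparisons of 2 groups but LPS in shNT (lowest 0.0598), and the interactions (lowest 0.0174 and 0.0266), so values with the replicate number as a block stand beside results of the other comparisons where they change a call of a member or, for LPS and the comparisons with shNT, the total count over the lists. Alternatives were DESeq2 1.42.0, RLE scaling, no filter, all 18 libraries in 1 fit, the block, and each library left out. Nothing in the labels ties libraries to cultures beyond the study's term, so p-values measure the spread between these libraries.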

Additional observations from a re-analysis of the deposited data

How the results depend on the processing

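No fold change of a member that was called turned its sign under any alternative run. The split of all calls under LPS did turn: 1820 higher and 2089 lower in shNT became 1833 and 1716 with DESeq2, 1455 and 1595 in shNR4A2 became 1533 and 1514 with RLE scaling and 1615 and 1481 with DESeq2, and 2007 and 2305 in shNR4A3 became 2023 and 2013 with DESeq2. It also turned in shNT without LPS replicate 2 (1751 and 1710) and in shNR4A2 without control replicate 1 (1198 and 1172), control replicate 3 (1196 and 1168), LPS replicate 1 (1139 and 974) or LPS replicate 2 (1755 and 1620). The calls of PTGS2, PTGER2 and PTGER4 under LPS held under every alternative in all 3 lines. With the replicate block, the members called went from 3 to 5 in shNR4A2 against shNT control, from 3 to 5 in shNR4A3 against shNT LPS, and from 1 to 3 (control) and 1 to 6 (LPS) between the knockdown lines. For LPS in shNT, whose numbers were not shown to pair, the block gave 4 members (ALOX5AP, adjusted p = 0.033), and it added no member to the interactions. All 18 libraries in 1 fit called 1 member in shNR4A3 against shNT control, where PTGER4 and ALOX5AP were lost and PTGS1 was gained, lost ALOX5AP in shNR4A2 against shNT LPS (4 to 3), and gave 2 between the knockdown lines in each state. Without a filter 2 members were called between the knockdown lines with LPS, shNR4A3 against shNT LPS lost PTGS1 and gained PTGER4 and TBXAS1, and ALOX5AP was gained for LPS in shNR4A3 and in shNR4A2 against shNT control, the last also with DESeq2. Leaving out 1 library gave 1 to 3 members in shNR4A2 against shNT LPS, 1 to 2 in shNR4A3 against shNT control and 0 to 1 between the knockdown lines with LPS. Calls over all genes in the main test, and with the block, were 3050 and 4751 for LPS in shNR4A2, 1019 and 3733 and 1085 and 4385 for shNR4A2 against shNT without and with LPS, 1108 and 2267 and 1005 and 3401 for shNR4A3, 480 and 1800 and 362 and 3666 between the knockdown lines, and 0 and 8 and 0 and 22 for the interactions. All 18 libraries in 1 fit called 4601 genes for LPS in shNR4A2, 1691 for shNR4A2 against shNT LPS and 1032 between the knockdown lines with LPS. Without a filter 1611 and 1843 genes were called for shNR4A2 against shNT without and with LPS, 1839 for shNR4A3 against shNT LPS, 838 and 1102 between the knockdown lines, and 29 and 138 for the interactions, and DESeq2 called 700 between the knockdown lines with LPS and 2 and 10 for the interactions. Leaving out 1 library gave 517 to 1128 and 342 to 1477 genes for shNR4A2 against shNT, 649 to 975 and 383 to 1693 for shNR4A3, 249 to 470 and 94 to 217 between the knockdown lines, and 0 to 8 and 0 to 44 for the interactions. The cause was not tested. Counts limit PTGES, PTGER2 without LPS and LTC4S.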
